A study of Mus musculus with 9 samples.

Results

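Matrix metalloproteinases (MMPs) and the tissue inhibitors of metalloproteinases (TIMPs) were followed in BV2 cells, an immortalized mouse microglial line, by RNA sequencing. The members were the 10 genes named Mmp2, Mmp8, Mmp9, Mmp12, Mmp13, Mmp14, Mmp19, Timp1, Timp2 and Timp3, out of 54532 genes in the deposited expression table. There were 3 groups of 3 libraries each. The Ctrl group was kept in medium with 10% serum. The OGD group underwent oxygen–glucose deprivation, in low-glucose medium with 4% serum and a chamber with 4% oxygen, so serum differed between Ctrl and OGD along with oxygen and glucose. The OGD_A485 group received A-485, which inhibits P300, an acetyltransferase of histones and other proteins, at 50 μM from the start of OGD, for 24 h. This dose and time were given for the experiments that preceded the transcriptome and are assumed for it. A-485 was not given to cells outside OGD, so its effect there could not be seen. No source used here says that the libraries came from separate cultures, so p-values measure the spread between these libraries, which may be technical.

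MMPs are zinc-dependent endopeptidases that are made as inactive precursors and cleave collagens, elastin, laminins and other proteins outside the cell. TIMPs bind the active site of MMPs and block it, and the balance of both sets how much pericellular matrix is degraded. In the hypoxic or ischemic brain, microglia and infiltrating leukocytes are known sources of MMPs, and gelatinases are known for opening the blood–brain barrier.

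Mmp13, Mmp12 and Mmp8, whose changes were the largest among the members, lie within the same MMP cluster on chromosome 9 (build GRCm38). Mmp13 spans chr9:7272514-7283331, Mmp12 chr9:7344381-7369499 and Mmp8 chr9:7558456-7568485, all on the plus strand. The bases just before the start of each are shown because Mmp8 differed from Mmp13 and Mmp12 in the group it rose in. They are taken from RefSeq (GRCm38.p6), cover chr9:7272264-7272513, chr9:7344147-7344380 and chr9:7558179-7558428, are written 5′ to 3′ on the plus strand, and end before the gene in the deposited table. Capitals mark a match to the AP-1 motif (TGANTCA), the NF-kB consensus, the core of the hypoxia response element (ACGTG) or the TATA box (TATAAA), searched on both strands in the 250 bases before each RefSeq start. For Mmp12, the last 16 of these lie within the deposited gene and are not printed.
Mmp13: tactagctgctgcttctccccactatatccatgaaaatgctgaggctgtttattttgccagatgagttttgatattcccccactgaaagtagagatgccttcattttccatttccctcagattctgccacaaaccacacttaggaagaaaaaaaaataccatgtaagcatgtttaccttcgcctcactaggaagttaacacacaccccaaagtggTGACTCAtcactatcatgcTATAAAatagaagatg
Mmp12: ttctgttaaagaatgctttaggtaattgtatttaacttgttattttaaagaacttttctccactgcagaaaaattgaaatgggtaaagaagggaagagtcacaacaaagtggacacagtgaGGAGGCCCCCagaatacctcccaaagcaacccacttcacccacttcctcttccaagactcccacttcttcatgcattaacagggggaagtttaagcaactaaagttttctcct
Mmp8: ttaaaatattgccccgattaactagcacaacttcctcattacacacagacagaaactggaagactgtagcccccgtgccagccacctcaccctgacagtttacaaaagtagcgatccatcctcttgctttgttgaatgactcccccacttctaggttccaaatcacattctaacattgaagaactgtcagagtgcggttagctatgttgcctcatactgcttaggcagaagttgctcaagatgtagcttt
The Mmp13 window held TGACTCA at 35 to 29 bases and TATAAA at 16 to 11 bases before its RefSeq start. The Mmp12 window held a match to the NF-kB consensus on the minus strand, printed here as GGAGGCCCCC, at 129 to 120 bases before its RefSeq start. RefSeq had 2 windows for Mmp12, and the one nearest the deposited start was used. A stretch just after this RefSeq start was found in no GENCODE transcript of Mmp12, so the start is uncertain. No match to these motifs lay in the Mmp8 window. Of 32851 RefSeq windows of 250 bases, 6.75% held the AP-1 motif, 7.25% the NF-kB consensus, 12.4% TATAAA and 16.6% ACGTG. Among the members, 7 of 10 had a RefSeq window (that of Timp2 within the deposited gene), and the windows of Mmp14 and Timp1 held ACGTG. A match is a stretch of letters and not a measured binding site.

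Expression was deposited as FPKM, read fragments scaled to gene length and library depth, which corrects for gene length and so allows levels of different genes to be compared. The libraries held 12593250 to 16091038 reads on genes, and 1 read on a gene of 1 kb was worth 0.0618 to 0.0786 FPKM. All 10 fixed microglia and macrophage markers passed the filter on low values, although Aif1, the gene of IBA1, stood at only 0.613 FPKM in Ctrl, 0.889 in OGD and 2.57 in OGD_A485. The summed level of these markers ranged over 464 to 482 FPKM in Ctrl libraries, 531 to 563 in those of OGD and 1090 to 1118 with A-485. This sum thus moved with the groups. The members below followed several patterns, of which that of Timp2 was close to that of these markers. The part of the markers in the values of the members was not tested. No marker of astrocytes, neurons or fibroblasts reached the filter. Of 4 endothelial markers, Pecam1 and Cdh5 were tested, and Pecam1 was called higher in OGD against Ctrl (1.07, adjusted p = 0.00128), at 0.362 FPKM in Ctrl, 0.866 in OGD and 0.739 in OGD_A485. The endothelial sum was 0.572 to 0.731 FPKM in Ctrl libraries, 1.14 to 1.58 in those of OGD and 1.03 to 1.37 with A-485, and its part in the results below was not tested. Fewer cells expressing a gene and less RNA of it per cell cannot be told apart in such libraries.

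OGD raised 3 of the members, Mmp12, Mmp13 and Mmp9, and lowered none. With A-485 added to OGD, Mmp8 and Timp2 rose, Mmp9 and Mmp19 fell, and Mmp12 and Mmp13 were not called, with values that overlapped those of OGD alone. A gene was called changed in limma at an unadjusted p under 0.01 with an absolute log2 fold change above 0.5, the limits used in the study, and fold changes are on the scale of log2(FPKM + 0.1), which understates changes of low genes. Of the 10 members, 8 were tested, since Mmp14 and Timp3 fell under a mean of 0.2 FPKM over the 9 libraries. Mmp8 passed that filter only through its OGD_A485 libraries, so that it had to differ and its calls with A-485 support nothing. In OGD against Ctrl, 3 members were called higher and 0 lower, where the 16123 genes tested had calls of 11.2% higher and 9.81% lower. In OGD_A485 against OGD, 2 members were called higher and 2 lower, against 12.2% and 13.4% of all genes tested. In OGD_A485 against Ctrl, 4 members (Mmp8, Mmp12, Mmp13 and Timp2) were called higher and 0 lower, against 17.0% and 16.6%. The comparisons share libraries, so they are not independent of each other. When every library was rescaled to the same sum of FPKM, the median gene of OGD_A485 against Ctrl shifted to -0.13 on the log2 scale, and the split of all called genes moved. It went from 1974 higher and 2165 lower to 1549 and 2645 in OGD_A485 against OGD. In OGD_A485 against Ctrl it went from 2747 and 2684 to 2072 and 3657. The called members kept their direction and their call under that scaling.

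**Figure D1:**
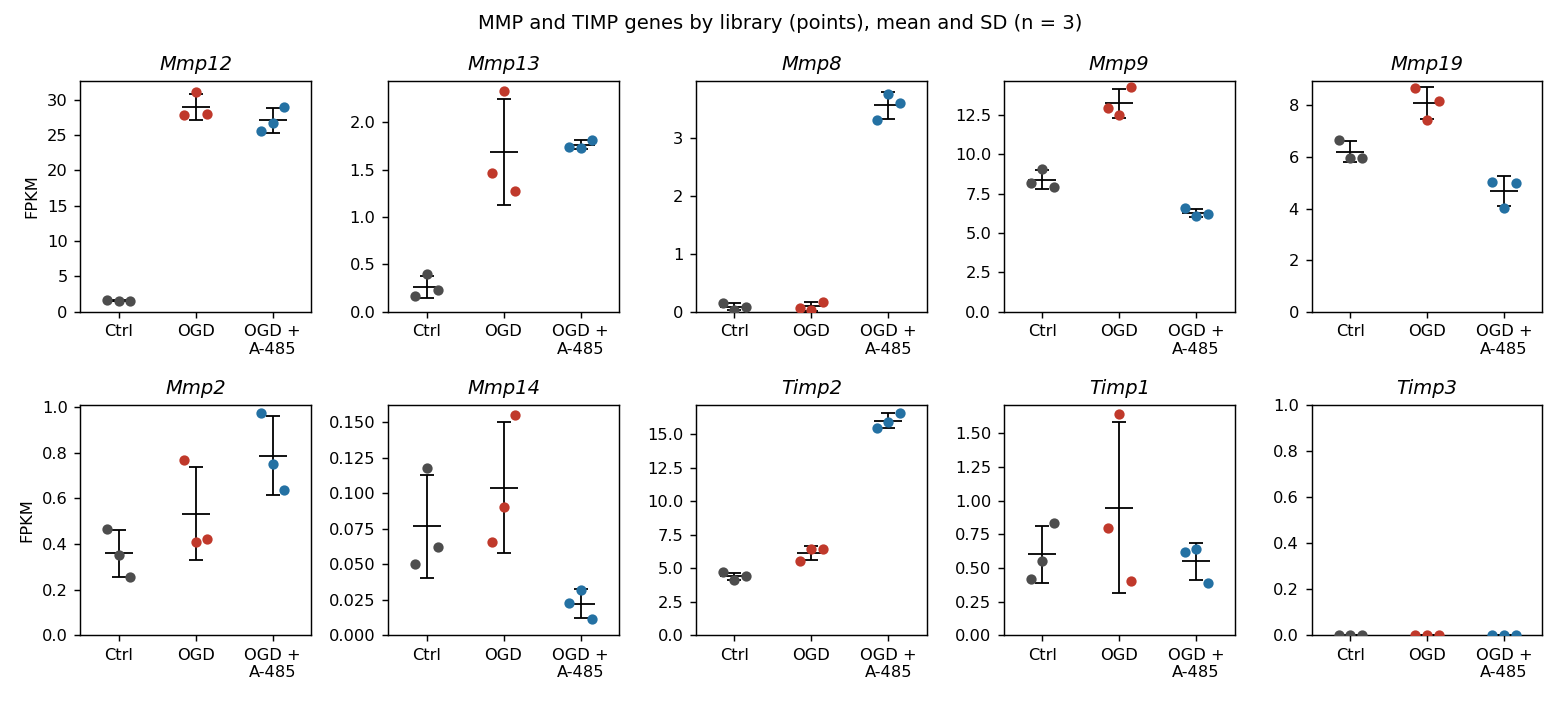
FPKM of the 10 members in each library (points), with the mean and SD of 3 libraries per group (bars), in Ctrl, OGD and OGD + A-485, each panel with its own FPKM axis from 0. Mmp12 and Mmp13 are high in both OGD groups, Mmp8 and Timp2 are highest in OGD + A-485, Mmp9 and Mmp19 peak in OGD, and Timp3 is at 0 in all 9 libraries.

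Mmp12, the macrophage elastase, showed the largest rise of the family in OGD. It stood at 1.64, 1.54 and 1.46 FPKM in the Ctrl libraries, at 27.8, 31.2 and 28.0 in the OGD libraries, and at 25.6, 26.7 and 29.0 in the OGD_A485 libraries. The OGD libraries were all far above the Ctrl libraries, whereas OGD and OGD_A485 overlapped. Mean FPKM rose 18.7-fold, from 1.55 ± 0.0929 to 29.0 ± 1.89 (SD, n = 3), a log2 fold change of 4.14 (SE 0.07, adjusted p = 9.18e-09 in limma). This was the 6th largest rise of the 16123 genes tested. Between OGD_A485 and OGD the difference was -0.10 (95% interval -0.25 to 0.06, adjusted p = 0.292). The interval leaves room for a fall no larger than 0.25 on the log2 scale in this fit. When the median change of neighbouring genes on the chromosome was removed, this difference was -0.20 (adjusted p = 0.0479 in limma). With quantile normalization it was -0.20 (adjusted p = 0.0481) and after rescaling to equal sums -0.19 (adjusted p = 0.0456). In none of these was it called. Mmp12 shares 157 exon bases with Mmp1b on the opposite strand, which was at 0 FPKM in 8 of the 9 libraries.

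Mmp13, collagenase-3, behaved likewise at a much lower level. The Ctrl libraries held 0.168, 0.394 and 0.231 FPKM, the OGD libraries 1.47, 2.33 and 1.28, and the OGD_A485 libraries 1.74, 1.73 and 1.82. All OGD libraries lay above all Ctrl libraries, and the 2nd OGD library lay above every other library. The log2 fold change of OGD against Ctrl was 2.30 (SE 0.27, adjusted p = 0.000163), and 2.06 to 2.54 when any library was left out. On a scale with a pseudocount of 1 FPKM it was 1.07, and with 0.01 it was 2.67. The depth behind it was small, with 31 reads over the Ctrl libraries and 179 over the OGD libraries, a depth-scaled ratio of 6.35 (95% exact interval 4.32 to 9.63, counting error only). OGD_A485 against OGD gave 0.10 (95% interval -0.52 to 0.72, adjusted p = 0.796), an interval wide enough to hold changes past the fold limit in both directions.

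Mmp8, the neutrophil collagenase, was near the limit of detection in Ctrl and OGD and higher in OGD_A485. It stood at 0.154, 0.0289 and 0.0764 FPKM in Ctrl and at 0.0648, 0.0317 and 0.176 in OGD, which is 1 to 6 reads per library. In OGD_A485 it stood at 3.30, 3.76 and 3.60 FPKM, from 117, 144 and 126 reads. The OGD and Ctrl libraries overlapped near the limit of detection (3 reads equal 0.0764 to 0.0972 FPKM for this gene), and every OGD_A485 library lay above them. Over the groups, 387 reads stood against 9, a depth-scaled ratio of 38.2, given as a description only. The fitted log2 fold change of OGD_A485 against OGD, 4.33, is given without a p because of the filter, and it ran from 2.06 with a pseudocount of 1 FPKM to 5.42 with 0.01. In OGD against Ctrl it was 0.02 (95% interval -0.80 to 0.83, adjusted p = 0.981). Of the 5 fixed neutrophil markers, S100a9 and Ly6g were at 0 in all 9 libraries, and the summed level was 0.0808 to 0.326 FPKM in Ctrl libraries, 0.247 to 0.533 in those of OGD and 1.38 to 2.84 with A-485. S100a8 made up most of the last of these, with 1.38, 2.65 and 1.80 FPKM in OGD_A485, while Mpo was at 0 in the OGD and OGD_A485 libraries. Elane went the other way, with means of 0.194, 0.153 and 0.0643 FPKM in Ctrl, OGD and OGD_A485, from 0 to 4 reads per library. The part of these markers in the rise of Mmp8 was not tested.

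**Figure D2:**
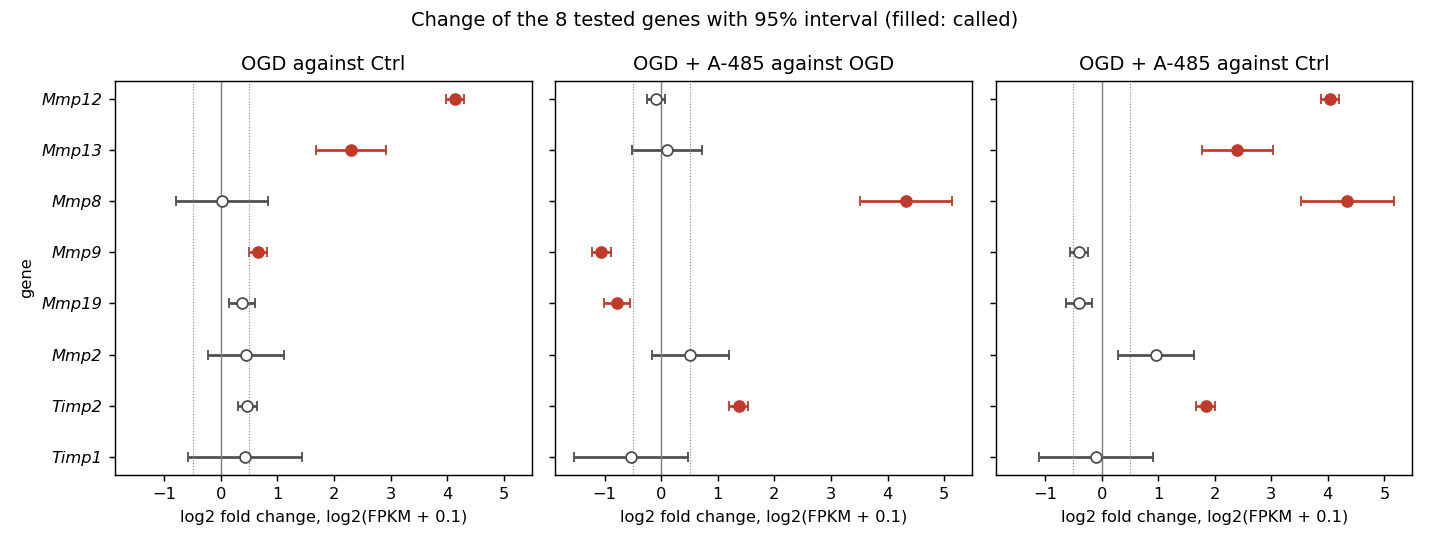
Log2 fold changes of the 8 tested members on the log2(FPKM + 0.1) scale with 95% intervals from limma, in panels for OGD against Ctrl and for OGD + A-485 against each of these. Filled red points were called and dotted lines mark a log2 fold change of 0.5 in either direction. Mmp12 lies at 4.14 in the first panel and at -0.10 in the second, while Mmp8 lies at 0.02 and at 4.33. Mmp8 passed the filter on low values only through OGD + A-485, so its filled points and their intervals support nothing.

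The gelatinase Mmp9 and the basement membrane protease Mmp19 were the members with the most expression in Ctrl, and both were highest in OGD and lowest in OGD_A485. Mmp9 (chr2:164940780-164955850, plus strand) stood at 8.21, 9.08 and 7.90 FPKM in Ctrl, at 13.0, 12.5 and 14.3 in OGD and at 6.59, 6.10 and 6.23 in OGD_A485. No pair of groups overlapped. It rose by 0.65 on the log2 scale in OGD (SE 0.07, adjusted p = 9.27e-05). In OGD_A485 against OGD it fell by 1.06 (SE 0.07, adjusted p = 4.06e-06), a 2.10-fold lower mean. Against Ctrl, OGD_A485 was at -0.41 (adjusted p = 0.001), within the fold limit and so not called, but past it at -0.56 after rescaling to equal sums.

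Mmp19 (chr10:128790910-128800824, plus strand) stood at 6.67, 5.96 and 5.98 FPKM in Ctrl, at 8.67, 7.44 and 8.17 in OGD and at 5.04, 4.01 and 5.01 in OGD_A485. Here too the groups did not overlap. The difference between OGD and Ctrl, 0.38 on the log2 scale (SE 0.10, adjusted p = 0.0145), was within the fold limit and not called. Mmp19 fell by 0.78 in OGD_A485 against OGD (SE 0.10, adjusted p = 0.00022). Against Ctrl it was at -0.40 (adjusted p = 0.00794) and not called, but at -0.56 and called after rescaling to equal sums. Mmp19 shares 789 exon bases with Tmem198b on the opposite strand. The mean FPKM of Tmem198b was 3.59, 4.75 and 2.90 in the 3 groups, and it fell by 0.69 in OGD_A485 against OGD (SE 0.09, adjusted p = 0.000256). Whether strand was used in counting is not given in the sources used here, so the origin of reads on the shared bases cannot be told. The deposited length of Mmp19 is 3533 bases.

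Mmp2 and Mmp14 stayed low. Mmp2, gelatinase A (chr8:92827291-92853420, plus strand), stood at 0.466, 0.354 and 0.256 FPKM in Ctrl, at 0.769, 0.410 and 0.422 in OGD and at 0.975, 0.751 and 0.638 in OGD_A485. OGD overlapped with both other groups, and OGD_A485 lay above Ctrl. OGD against Ctrl gave a log2 fold change of 0.45 (SE 0.30, adjusted p = 0.265). OGD_A485 against OGD gave 0.51 (adjusted p = 0.188). OGD_A485 against Ctrl gave 0.96 (adjusted p = 0.022 in limma), just short of the limit on the unadjusted p, which was 0.0111. It was called under some alternatives, such as limma-voom on the recovered reads (1.16), no trend in the prior variance, and the fit without the 1st Ctrl library (1.12).

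Mmp14, the membrane-bound protease that activates the Mmp2 precursor together with Timp2, lies at chr14:54431612-54445364 on the plus strand. It stood at 0.0502, 0.118 and 0.0622 FPKM in Ctrl, at 0.0659, 0.0902 and 0.155 in OGD and at 0.0230, 0.0319 and 0.0116 in OGD_A485. Every OGD_A485 library was below every other library, but with 1 to 3 reads each. Over the groups, 6 reads stood against 25, a depth-scaled ratio of 0.213 (95% exact interval 0.0715 to 0.532, counting error only). In limma with no filter on low values the log2 fold change of OGD_A485 against OGD was -0.72 (adjusted p = 0.049) and was not called.

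Among the inhibitors, Timp2 carried nearly all of the signal. Timp2 (chr11:118301069-118355740, minus strand), which blocks most MMPs and binds the Mmp2 precursor, stood at 4.69, 4.14 and 4.39 FPKM in Ctrl, at 5.55, 6.43 and 6.40 in OGD and at 15.5, 15.9 and 16.6 in OGD_A485. The OGD_A485 libraries lay far above the others, and OGD lay above Ctrl by less. Timp2 rose by 1.37 on the log2 scale in OGD_A485 against OGD (SE 0.07, adjusted p = 1.17e-06), a 2.61-fold higher mean. Against Ctrl it rose by 1.84 (adjusted p = 1.31e-07). The difference between OGD and Ctrl, 0.46 (SE 0.07, adjusted p = 0.000825), was within the fold limit. It was past it without the 1st Ctrl library (0.51) or without the 1st OGD library (0.53). With the median change of neighbouring genes removed, Timp2 rose by 1.15 in OGD_A485 against OGD. The 10 microglia and macrophage markers had a median log2 fold change of 1.35 in that comparison. Their median was 1.81 in OGD_A485 against Ctrl and 0.45 in OGD against Ctrl. Timp2 was thus close to these markers in all comparisons, and their part in its rise was not tested.

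Timp1, the inducible inhibitor that binds the Mmp9 precursor, was low and varied within groups. It lies at chrX:20870166-20874735 on the plus strand, within an intron of Syn1, which is on the opposite strand. Its libraries stood at 0.421, 0.553 and 0.835 FPKM in Ctrl, at 0.796, 1.64 and 0.400 in OGD and at 0.617, 0.642 and 0.391 in OGD_A485. All groups overlapped, and the highest and nearly the lowest value both came from OGD. OGD against Ctrl gave 0.43 on the log2 scale (95% interval -0.57 to 1.44, adjusted p = 0.47) and turned to -0.03 when the 2nd OGD library was left out. The values rest on 5 to 19 reads per library. Timp3, the matrix-bound inhibitor (chr10:86300372-86349506, plus strand), had 0 reads in all 9 libraries, where 3 reads would equal 0.0227 to 0.0289 FPKM.

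The composition of the family differed between the groups. In Ctrl, Mmp9 (8.40 FPKM) and Mmp19 (6.20) led, followed by Mmp12 (1.55). In OGD, Mmp12 (29.0) led before Mmp9 (13.2) and Mmp19 (8.09). In OGD_A485, Mmp12 (27.1) led before Mmp9 (6.31), Mmp19 (4.69), Mmp8 (3.56) and Mmp13 (1.76), and no library of a gene in this order overlapped with those of the next. Mmp2 and Mmp13 overlapped in Ctrl. The share of Mmp12 in the summed FPKM of the 7 MMPs was 9.14% ± 0.325 in Ctrl, 54.9% ± 2.44 in OGD and 61.3% ± 1.85 in OGD_A485 (SD, n = 3). That of Mmp9 was 49.6% ± 2.35, 25.1% ± 2.0 and 14.3% ± 0.90.

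The summed FPKM of the 7 MMPs was 16.9 ± 0.841 in Ctrl, 52.7 ± 1.12 in OGD and 44.2 ± 1.82 in OGD_A485. That of the 3 TIMPs was 5.01 ± 0.278, 7.07 ± 0.895 and 16.5 ± 0.428. The MMP sum thus stayed high with A-485, while the TIMP sum was highest there. The ratio of both sums was 3.06 to 3.72 in Ctrl libraries, 6.69 to 8.17 in those of OGD and 2.60 to 2.73 with A-485, with no overlap between groups. Mmp12 per Timp2 did not come back to the Ctrl ratio of 0.352 ± 0.0199, with 4.74 ± 0.334 in OGD and 1.69 ± 0.0517 in OGD_A485. Mmp9 per Timp2 was 1.91 ± 0.242 in Ctrl, 2.17 ± 0.201 in OGD and 0.395 ± 0.0270 in OGD_A485. These are ratios of transcript levels, given as a description with no test, and they say nothing of protein or enzyme activity. The part of the microglia and macrophage markers, to which Timp2 was close in pattern, in these sums and ratios was not tested.

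**Figure D3:**
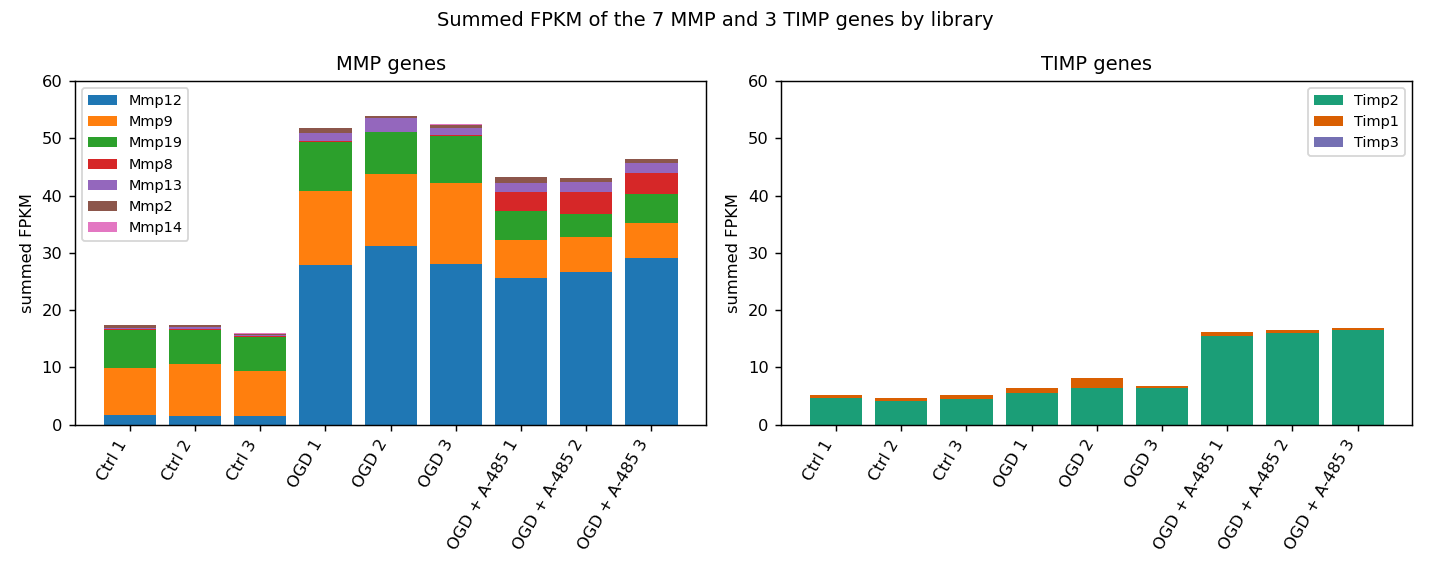
Summed FPKM of the 7 MMP genes (left) and the 3 TIMP genes (right) in each of the 9 libraries, stacked by gene on the same axis. The MMP sum is 15.97 to 17.5 FPKM for Ctrl, 51.8 to 54.0 for OGD and 43.1 to 46.3 for OGD + A-485. The TIMP sum is highest in OGD + A-485, at 16.1 to 16.9.

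Along the chromosome 9 cluster, the neighbours Mmp13 and Mmp12 rose together in OGD, and Mmp8 differed in pattern from both. Mmp12 starts 71.9 kb after Mmp13 and Mmp8 starts 286 kb after it, and between Mmp12 and Mmp8 lie Mmp1b, Mmp3 and Mmp10. Mmp10, stromelysin-2, stood at 0.187, 0.191 and 0.205 FPKM in Ctrl, OGD and OGD_A485, below the filter. The other MMPs of the cluster (Mmp1b, Mmp3, Mmp27, Mmp20 and Mmp7) did not exceed a group mean of 0.0319 FPKM. Outside the MMPs, Dcun1d5, 88.0 kb before Mmp13, gave -0.18 in OGD against Ctrl (adjusted p = 0.10) and -0.06 in OGD_A485 against OGD (adjusted p = 0.547). Tmem123, 492 kb after the start of Mmp13, gave -0.07 (adjusted p = 0.425) and 0.02 (adjusted p = 0.793). Birc2 and Birc3, inhibitors of apoptosis farther out, differed from each other. Birc2, at 546 kb, gave 0.49 in OGD against Ctrl (adjusted p = 0.00264), within the fold limit, and fell by 0.51 in OGD_A485 against OGD (adjusted p = 0.00169). Birc3, at 576 kb, rose by 0.64 (adjusted p = 2.02e-05) and by 0.50 (adjusted p = 5.97e-05). On the other side, Dync2h1, whose start lies 344 kb before that of Mmp13, gave 0.07 in OGD against Ctrl (adjusted p = 0.627) and fell by 1.03 in OGD_A485 against OGD (adjusted p = 5.18e-05). These flanking genes were named for their position.

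**Figure D4:**
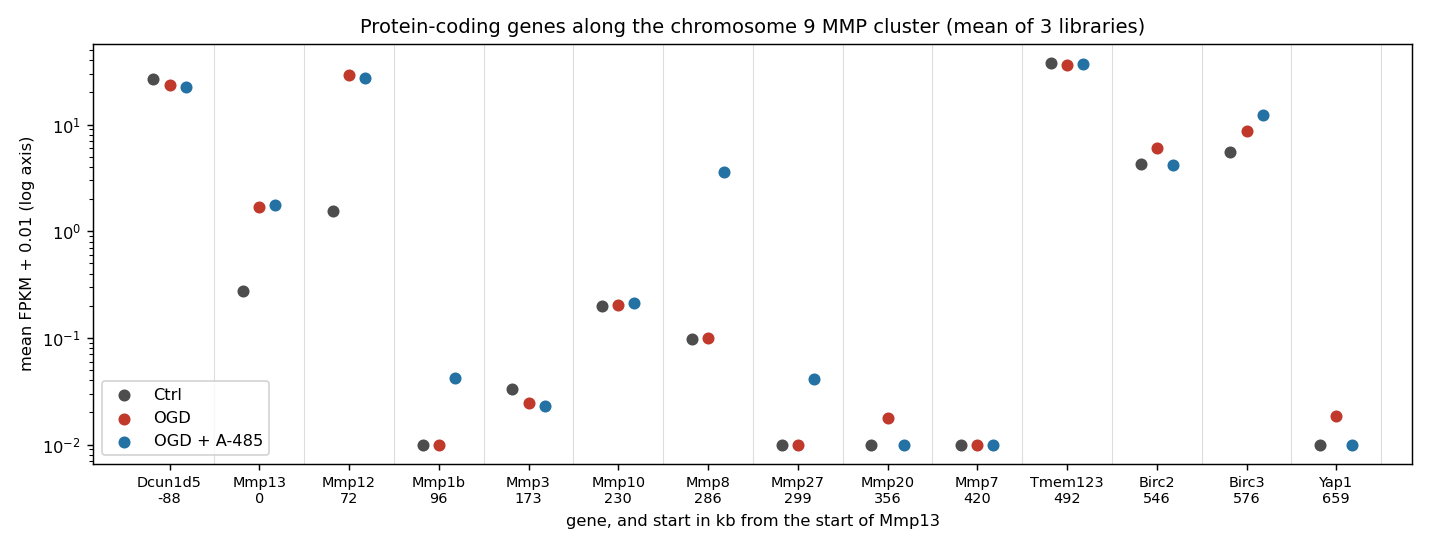
Mean FPKM + 0.01 of 3 libraries per group on a log axis, for protein-coding genes in their order along the chromosome 9 MMP cluster, with the start of each in kb from the start of Mmp13. Mmp13 and Mmp12 are raised in both OGD groups and Mmp8 only in OGD + A-485 (3.56 FPKM), while Mmp10 between them stays near 0.19. Dcun1d5 is at 26.5, 23.4 and 22.4 FPKM in Ctrl, OGD and OGD + A-485, and Tmem123 at 37.7, 36.1 and 36.6. Birc2 (4.26, 6.02 and 4.19) and Birc3 (5.54, 8.70 and 12.4) differ between the groups.

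Most of the remaining family lay under the filter on low values. Of 16 other MMP genes, Mmp23 alone was tested, at 0.648, 0.883 and 0.893 FPKM in the 3 groups, with no call. Timp4, Reck and A2m, the other inhibitors listed, fell under the filter.

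The product of the plasminogen system, plasmin, can activate MMP precursors. Of 9 genes of this system, 7 were tested, and 6 were called higher and 0 lower in OGD against Ctrl, where 11.2% of all genes were called higher and 9.81% lower. Their median log2 fold change was 1.86, that of all genes tested was 0.01, and Serpinf2 (-0.20) was not called. In OGD_A485 against OGD, 1 was called higher and 4 lower (median -2.10, all genes 0.01), against 12.2% and 13.4% of all genes. The 6 higher in OGD and the 4 lower with A-485 include Serpinb2, which was tested only because of its OGD libraries. The median of -2.10 is its own value. Plau, the urokinase-type activator, stood at 94.1 ± 4.76 FPKM in Ctrl, 343 ± 16.5 in OGD and 62.2 ± 4.01 in OGD_A485. It rose by 1.86 in OGD (SE 0.06, adjusted p = 2.39e-07) and fell by 2.46 with A-485 (SE 0.06, adjusted p = 2.6e-08). Plat, the tissue-type activator, was also called higher in OGD (2.25) and lower with A-485 (-4.28), at a mean under 1 FPKM over all libraries. Serpinb2, an inhibitor of the urokinase-type activator, stood at 0.151 FPKM in Ctrl, 1.18 in OGD and 0.201 in OGD_A485. Since it passed the filter on low values only through OGD, its calls support nothing. Plat and Serpinb2 were named after their values were seen. Plaur, the urokinase receptor, instead rose again with A-485, by 0.68 (SE 0.06, adjusted p = 2.73e-05), from 44.0 ± 3.21 to 70.4 ± 3.40 FPKM. Plg, the gene of plasminogen itself, was at 0 in all 9 libraries (named after its values were seen).

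Of 9 genes listed for activation of MMP precursors or as cell surface partners of MMPs and TIMPs, 7 were tested. In OGD against Ctrl, 5 were called higher and 0 lower (median 0.66; all genes 11.2% and 9.81%), and Pcsk7 (0.34) and Cd63 (-0.04) were not called. In OGD_A485 against OGD, 3 were called higher and 1 lower (median 0.34), against 12.2% and 13.4% of all genes. Furin, which cleaves precursors of membrane-type MMPs, rose from 14.0 ± 0.195 to 50.3 ± 2.5 FPKM in OGD, by 1.84 (SE 0.06, adjusted p = 2.39e-07), and fell by 0.66 (SE 0.06, adjusted p = 2.38e-05) to 31.96 ± 2.42 with A-485. Bsg, the MMP inducer basigin, rose by 0.85 in OGD (SE 0.06, adjusted p = 9.36e-06). Cd63, a cell surface partner of Timp1, rose by 1.03 (SE 0.08, adjusted p = 8.39e-06) and Lrp1, a receptor that clears MMPs, by 0.59 (SE 0.07, adjusted p = 0.00014) in OGD_A485 against OGD.

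Of the ADAM and ADAMTS proteases, 7 of 12 were tested. In OGD against Ctrl, 4 were called higher and 0 lower (median 0.57), beside 11.2% and 9.81% of all genes. In OGD_A485 against OGD, 3 were higher and 1 lower (median 0.47), beside 12.2% and 13.4%. Adam8 rose by 0.86 in OGD (SE 0.05, adjusted p = 2.32e-06). Adamts4, an aggrecanase, rose by 0.72 in OGD (SE 0.13, adjusted p = 0.00186) and fell by 0.78 with A-485 (SE 0.13, adjusted p = 0.00107). Adam15 rose by 0.85 (SE 0.08, adjusted p = 2.33e-05) and Adam17, the TNF sheddase, by 0.62 (SE 0.03, adjusted p = 1.06e-06) in OGD_A485 against OGD.

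Cathepsins, lysosomal proteases that also degrade matrix, held the largest rise of these lists in OGD_A485 against OGD. Of 4 tested, only Ctsk was called higher in OGD against Ctrl (median 0.15; 11.2% of all genes), and 3 were called higher in OGD_A485 against OGD (median 1.35; 12.2% of all genes), with 0 lower in both. Ctsk, a collagen-degrading cathepsin, stood at 24.6 ± 1.52 FPKM in Ctrl, 49.0 ± 1.44 in OGD and 482 ± 5.19 in OGD_A485, log2 fold changes of 0.99 (SE 0.05, adjusted p = 1.35e-06) and 3.30 (SE 0.05, adjusted p = 1.8e-09). Ctss rose by 1.47 in OGD_A485 against OGD (SE 0.05, adjusted p = 1.32e-07). The microglia and macrophage markers moved the same way, with 4 of 10 called higher in OGD against Ctrl and 9 of 10 in OGD_A485 against OGD, and the part of this in the cathepsin values was not tested.

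Few of the matrix proteins that MMPs cleave were expressed, with 3 of 16 tested. Spp1, the gene of osteopontin, which is cut by several MMPs, stood at 1828 ± 53.9 FPKM in Ctrl, 3034 ± 224 in OGD and 1055 ± 60.6 in OGD_A485. It rose by 0.73 in OGD (SE 0.08, adjusted p = 9.2e-05) and fell by 1.52 with A-485 (SE 0.08, adjusted p = 9.9e-07). Of these 3 substrates, 1 was called higher and 0 lower in OGD against Ctrl, beside 11.2% and 9.81% of all genes. In OGD_A485 against OGD, 1 was called higher and 1 lower, beside 12.2% and 13.4%. The rise there was that of Col4a2, from 0.272 to 0.624 FPKM, named after its values were seen.

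**Figure D5:**
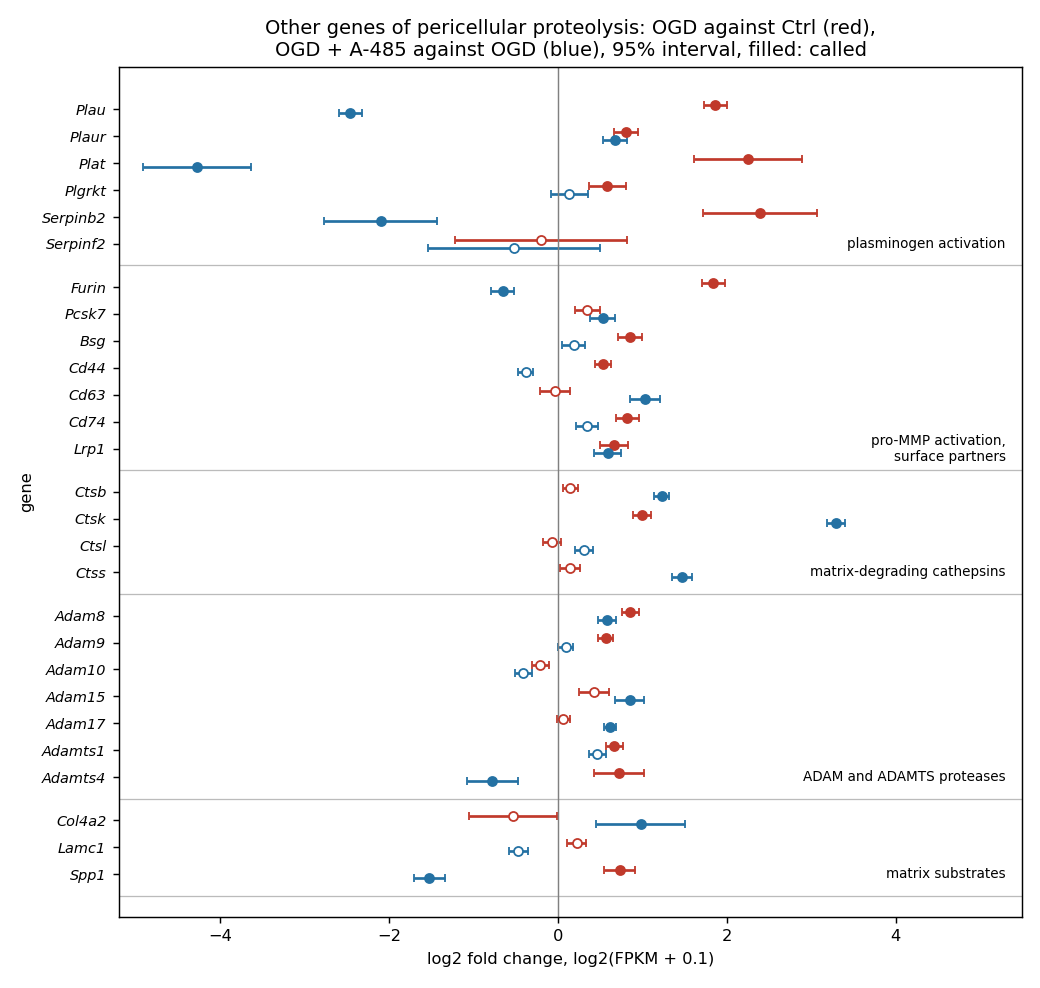
Log2 fold changes on the log2(FPKM + 0.1) scale with 95% intervals of tested genes from 5 related lists, in OGD against Ctrl (red) and OGD + A-485 against OGD (blue), filled where called. Plau lies at 1.86 in red and at -2.46 in blue, whereas Ctsk lies at 0.99 and 3.30. Serpinb2 passed the filter on low values only through OGD, so its filled points support nothing.

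The genes whose pattern over the 9 libraries was most like that of Mmp12, by Euclidean distance of centred log2(FPKM + 0.1), were Gm27881, Gm5483, 2010005H15Rik, Epm2a and Gm38341, at distances of 1.01 to 1.53. Gm27881, a microRNA gene, and Gm38341 were at 0 FPKM in every Ctrl library, and Epm2a stood at 0.196 FPKM there. These passed the filter on low values only through the OGD groups, so their likeness to Mmp12 supports nothing. Gm5483 stood at 1.499, 28.1 and 16.5 FPKM in Ctrl, OGD and OGD_A485, and 2010005H15Rik at 8.03, 76.2 and 80.0. Among those most like Timp2 were Pld4, Acot2, Sulf2 and Cd33, at distances of 0.266 to 0.309. Cd33, a sialic acid-binding receptor of myeloid cells, stood at 14.7, 19.1 and 52.8 FPKM, and Sulf2, a secreted sulfatase acting on heparan sulfate, at 4.37, 6.23 and 14.5. All 9 points are the same libraries for each gene, and 3 groups shape any such likeness.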

How the data were processed

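RNA of 9 BV2 libraries in 3 groups of 3, assigned by the sample labels, was analysed. The authors made the libraries with a SMARTer kit, counted reads on genes with featureCounts 1.5.0-p3 and deposited FPKM, computed from gene length and read counts, with gene positions. The submitters' processing notes name GRCm38 and mm10, and aligner and annotation release are not given in the sources used here. FPKM times gene length and the divisor of each library gave whole reads for 100% of values (tolerance 0.01).

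The deposited FPKM were put on the scale log2(FPKM + 0.1), genes under a mean of 0.2 FPKM were dropped, and the remaining 16123 were fitted over all 9 libraries in limma 3.58.1 (R 4.3.3; group means, trended prior variance) after a check on simulated data. Adjusted p-values are Benjamini-Hochberg over all genes tested. The deposited unit is FPKM, so the study's count test was not repeated, and limma-voom on the recovered reads is an alternative. No exact permutation test was used, as with 3 libraries a side its smallest two-sided p is 0.1. Counting intervals are exact, at 95%, and PCR duplicates make them too narrow. Other steps used Python 3.11.15 (matplotlib 3.10.9, scipy 1.17.1, pandas 2.3.3, numpy 2.4.6). Of the shared gene IDs, 98.3% had the same coordinates in GENCODE, from which exon overlaps were taken.

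All members are named, and of each other list the called genes with a mean of 1 FPKM or more that rose most (2) and fell most (2), in OGD against Ctrl and OGD_A485 against OGD, with the 5 genes most like the most abundant MMP and TIMP. Some genes that these rules name are not reported here. The members and lists were chosen with earlier results of these data known. Alternatives were other pseudocounts (1 and 0.01), filters, quantile and equal-sum scaling, fits of 2 groups, a replicate block, no variance trend, an adjusted p under 0.05, limma-voom on the recovered reads, subtraction of the median over 50 neighbouring genes, and each library left out in turn.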

Additional observations from a re-analysis of the deposited data

How the results depend on the processing

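Of 426 alternative values of the members' log2 fold changes, 404 kept their direction and side of the threshold, 13 newly passed it, and 9, none of them called in either setting, changed sign. Those were Mmp8 in OGD against Ctrl (-0.21 with quantile normalization, -0.0107 with equal sums, -0.29 to 0.27 with a library left out), Timp1 in OGD against Ctrl (-0.0282 to 0.87) and in OGD_A485 against Ctrl (-0.29 to 0.13) with a library left out, and Mmp13 in OGD_A485 against OGD (-0.0173 with neighbouring genes removed, -0.0683 to 0.34 with a library left out). With an adjusted p under 0.05 and no fold limit, 7300 of the 16123 genes tested were called in OGD against Ctrl (3384 before). In OGD_A485 against OGD 8036 were called (4139) and in OGD_A485 against Ctrl 9130 (5431). Of the 8 members tested, 5 were called in the first (3 before) and 7 in the last (4). These 7 include Mmp8, which passed the filter on low values only through OGD_A485. Leaving out a library gave 3078 to 3350, 3889 to 4080 and 5169 to 5265 genes and 3 to 4, 4 and 4 to 5 members. Equal-sum scaling lowered the share of rises among calls from 47.7% to 36.9% in OGD_A485 against OGD and from 50.6% to 36.2% in OGD_A485 against Ctrl. Replicate numbers are shared only as numbers, since same-numbered libraries did not deviate together (r -0.05 to 0.04 over 9 pairs). With the replicate block, 3288, 4046 and 5317 genes were called, and Mmp2 passed in OGD_A485 against Ctrl (0.96, adjusted p = 0.00881 in limma). Depth limits Mmp8 outside OGD_A485, Mmp14 and Timp1, at 1 to 19 reads per library.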

Other observations

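Inhibitors of other protease classes were looked at after Gm5483 and 2010005H15Rik had appeared among the genes most like Mmp12. RefSeq gives these names as synonyms of Cstdc4 and Csta2, genes of the stefin (cystatin A) group on chromosome 16, whose products block cysteine cathepsins. Gm5483 rose by 4.15 on the log2 scale in OGD against Ctrl (SE 0.15, adjusted p = 3.92e-07 in limma) and fell by 0.79 in OGD_A485 against OGD (SE 0.15, adjusted p = 0.00252). 2010005H15Rik rose by 3.23 in OGD (SE 0.11, adjusted p = 2.61e-07) and gave 0.05 with A-485 (adjusted p = 0.712). Stfa1 was at 0 in the Ctrl libraries, at 0.816 ± 0.141 FPKM in OGD and at 1.25 ± 0.416 in OGD_A485. Stfa3 stood at 0.0568 ± 0.0983, 0.0636 ± 0.110 and 1.88 ± 0.511 FPKM, and it passed the filter on low values only through OGD_A485, so no test is given. Stefin genes are close copies of each other, so reads may be split between them and their values are uncertain.

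Among secreted inhibitors, Cst3, cystatin C, stood at 123 ± 2.99, 107 ± 6.14 and 191 ± 4.86 FPKM and rose by 0.83 in OGD_A485 against OGD (SE 0.05, adjusted p = 1.62e-06). Slpi, an inhibitor of serine proteases, stood at 27.2 ± 0.696, 26.6 ± 2.32 and 45.9 ± 5.35 FPKM and rose by 0.78 in the same comparison (SE 0.09, adjusted p = 8.69e-05). Wfdc17 rose in both steps, from 2.87 ± 0.678 to 9.44 ± 0.697 and 27.1 ± 2.62 FPKM. Cst7, cystatin F, gave -0.48 in OGD_A485 against OGD (adjusted p = 0.00526), within the fold limit.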
